A study of Drosophila melanogaster with 24 samples.

Results

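Gene expression in the abdominal carcass of Drosophila melanogaster females from Selected populations was compared with that of females from Control populations, all raised as larvae on standard food. The comparison used 12 of the 24 libraries of the study: 6 Selected libraries from populations S1 to S6, and 6 Control libraries from populations C1 to C6. Libraries were chosen by the characteristics in their labels, which give population, regime and larval diet. The titles of the same libraries contradict the characteristics, naming the other diet in all 12 and the other regime in 6, so every direction below rests on the characteristics. The study's title sets the regimes in the context of larval undernutrition, and the labels do not say further how the Selected populations were bred. The comparison asks which adult expression differences go with evolutionary regime when the larval food was not poor.

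The carcass was the abdominal fat body with the body wall, left after gonads, gut and most of the tubules had been taken out, with some hemolymph, oenocytes and neurons. Each library came from 1 pool of 10 carcasses of mated females aged about 4 days, and 1 such pool stands for a population. All flies were moved to standard food on day 1 of adult life, so diet refers to larval food. Eggs were seeded at about 200 per 40 ml of food. The other 12 libraries, from the same 12 populations raised on poor larval food with 0.25 of the yeast, sugars and cornmeal, are used below only where they are named.

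The fat body of the fly combines roles that vertebrates divide between liver and adipose tissue. It stores fat and glycogen, makes yolk proteins in females, detoxifies foreign compounds through cytochrome P450 enzymes and conjugating enzymes, and secretes antimicrobial peptides into the hemolymph. Blood cells, called hemocytes, adhere to it, and the body wall adds epidermis that makes cuticle, oenocytes that make cuticular hydrocarbons, and muscle.

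Depth was alike in 11 of the libraries, at 29.9 to 31.4 M counts summed over genes, and the Selected library S2 had 22.3 M. S2 also had 9.3% of its counts on ribosomal RNA pseudogenes, against 0.727% to 2.59% in the others. That share averaged 3.12 ± 3.06% in Selected and 1.44 ± 0.405% in Control libraries (SD, n = 6 each; exact two-sided permutation p = 0.0649, and 0.13 without S2). Markers of the labelled tissue were abundant. Yolk protein and female fat body genes summed to 44898 to 119022 CPM (counts scaled to library size) in Selected and 42902 to 94118 CPM in Control libraries. Oenocyte hydrocarbon genes summed to 51257 to 86709 CPM in Selected and 56359 to 89242 CPM in Control libraries. No gene of either list was at 0 in all 12 libraries.

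Markers of dissected tissues varied widely between libraries and not evenly between regimes. The 25 germline and oocyte genes summed to 2935, 1354, 2085, 563, 1558 and 325 CPM in Selected S1 to S6, against 599, 397, 804, 2378, 650 and 555 CPM in Control C1 to C6. The 22 eggshell genes, expressed in follicle cells of the ovary, exceeded 1000 CPM in S1, S3, S5 and C4 and lay at 11 to 211 CPM in the other libraries. The 36 digestive enzyme genes of the midgut summed to 24189 CPM in S6, to 271 to 1985 CPM in the other Selected libraries, and to 2105 to 7295 CPM in Control libraries. The first principal component of the 12 libraries held 47.3% of the variance and followed the germline score (r = -0.98, 12 libraries). The second held 15.8% and followed the midgut score (r = 0.87). In a pooled tissue, fewer cells of a type and less RNA per cell cannot be told apart.

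**Figure D1:**
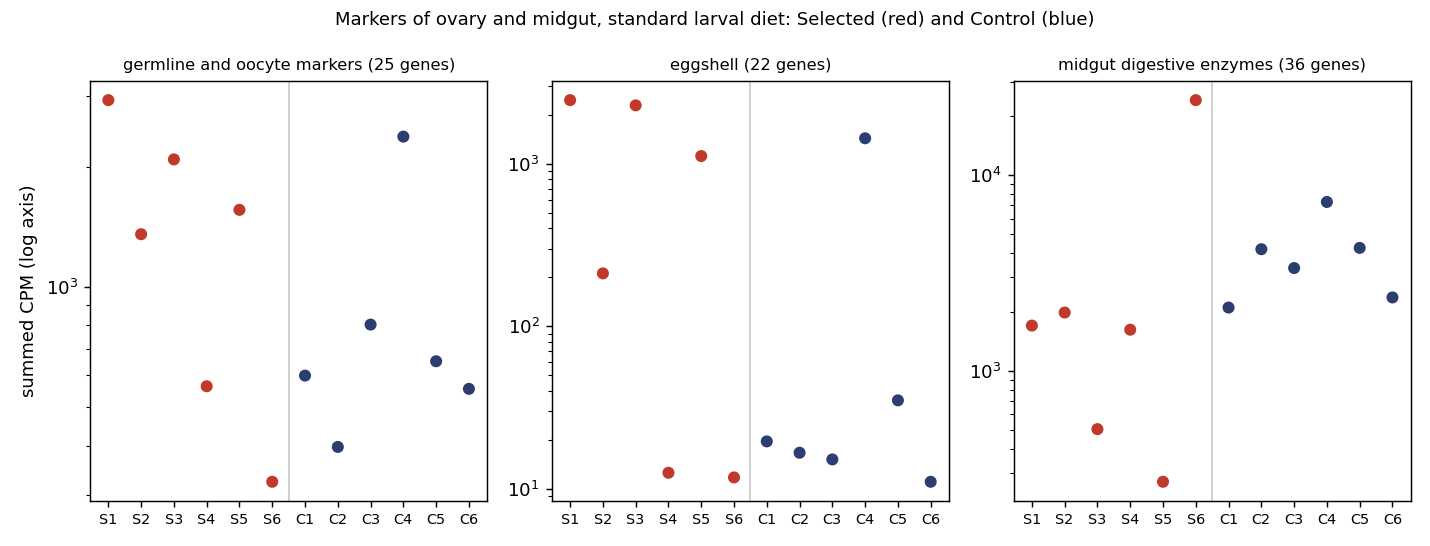
Summed CPM of germline, eggshell and midgut marker genes (log axes) in each of the 6 Selected and 6 Control libraries on standard larval diet. Eggshell markers pass 1000 CPM in S1, S3, S5 and C4, and midgut markers peak at 24189 CPM in S6.

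Of 9769 genes tested with edgeR, 1 passed a Benjamini-Hochberg adjusted p of 0.05. It was Cyp6a20, which fell in Selected carcasses, so 0.0102% of genes were called lower and 0% were called higher. An unadjusted p below 0.05 was found for 604 genes (6.18%), of which 230 (2.35%) were higher and 374 (3.83%) lower in Selected libraries. The median log2 fold change of all genes tested was 0.04, and 57.2% of genes had a positive one. All fold changes here are log2 values, Selected minus Control, with ± giving the SE.

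Cyp6a20 (FBgn0033980, chromosome 2R, 14882118 to 14884046, plus strand, BDGP6.54) encodes a cytochrome P450 that has been linked to aggression in male flies. Its level was 7.1, 5.34, 5.75, 9.42, 3.31 and 6.99 CPM in Selected S1 to S6, against 95.2, 130.3, 175.5, 52.6, 79.6 and 79.8 CPM in Control C1 to C6. The groups did not overlap: the highest Selected library lay far below the lowest Control library. The mean was 6.32 ± 2.05 CPM in Selected and 102 ± 44.0 CPM in Control carcasses (SD, n = 6 each), or 4.42 TPM in Selected and 67.8 TPM in Control carcasses on the scale per transcript length. The mean CPM was 16.2-fold higher in Control. Cyp6a20 fell by 4.01 ± 0.33 on the log2 scale (edgeR adjusted p = 0.000385). With the 4 libraries rich in eggshell markers left out, the log2 fold change was -3.94 (edgeR adjusted p = 0.0385), and with germline and midgut scores as covariates it was -3.86 (0.0078).

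**Figure D2:**
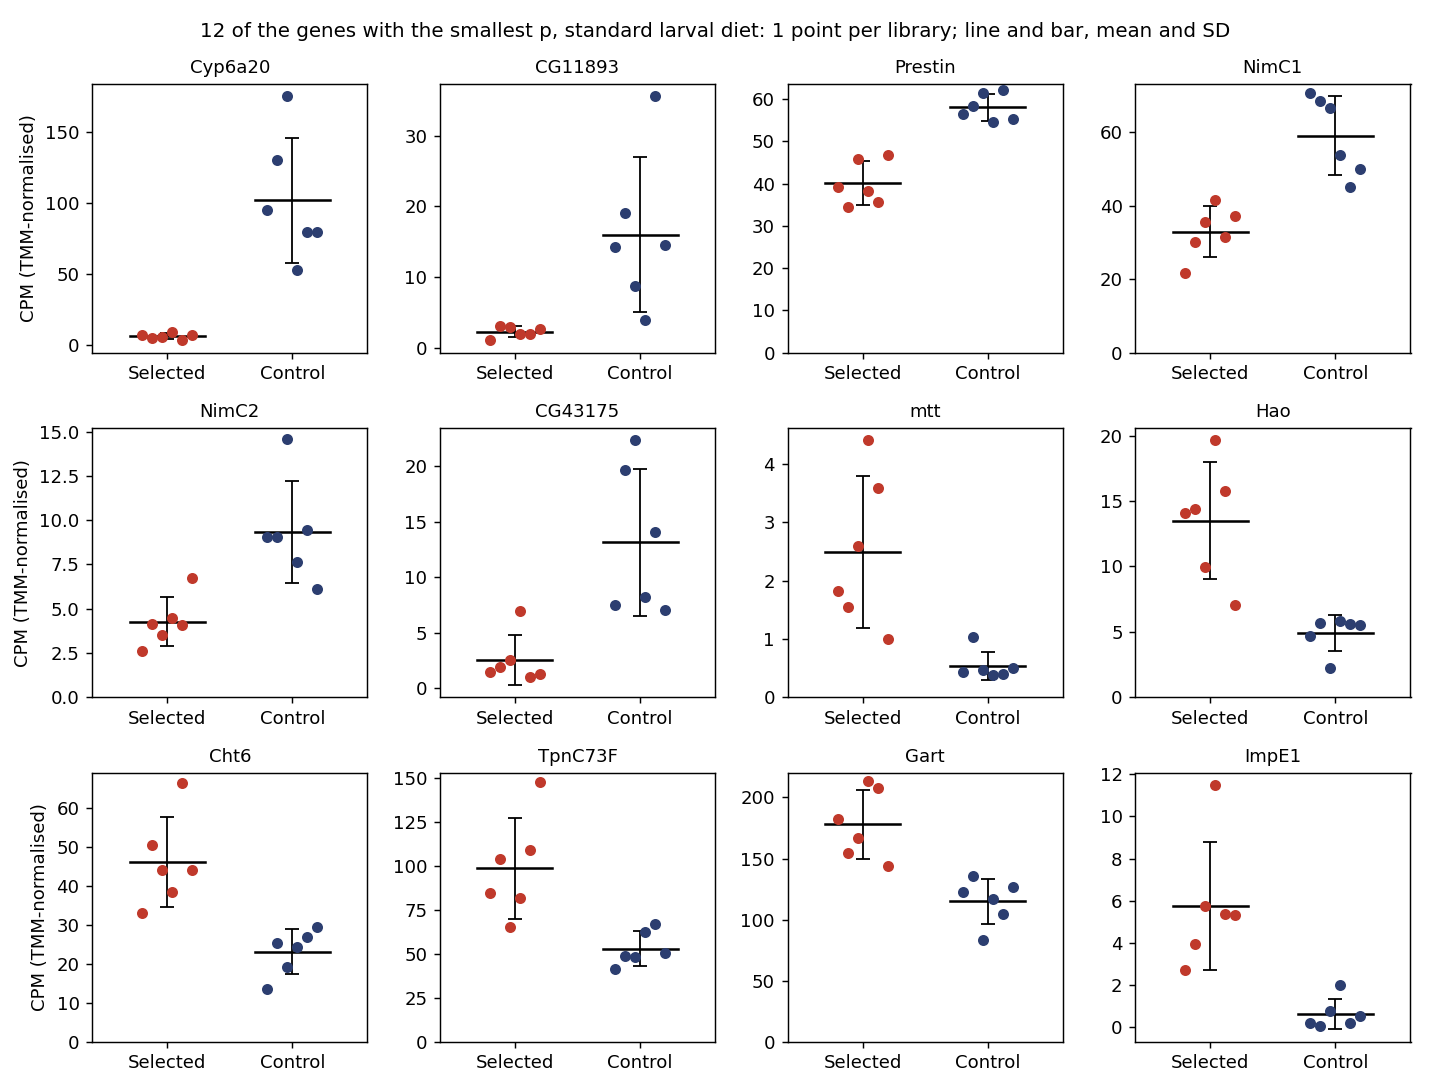
Normalised level (CPM, linear axes) of 12 of the 24 genes with the smallest p, 1 point per library, Selected left of Control, with the mean and SD of 6 libraries. Cyp6a20 separates the groups most widely, at 3.31 to 9.42 CPM in Selected and 52.6 to 175.5 CPM in Control libraries.

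Cyp6a20 lies in a cluster of related P450 genes, and its tested relatives within 20 kb did not pass the test. Cyp6a17, a P450 linked to temperature preference in the fly, averaged 17.3 ± 14.5 CPM in Selected and 45.3 ± 29.3 CPM in Control libraries, a log2 fold change of -1.38 ± 0.69. Cyp6a9 averaged 71.4 ± 21.1 CPM in Selected and 105 ± 21.7 CPM in Control libraries (-0.56 ± 0.20), and Cyp6a8 differed by -0.86 ± 0.48. Both groups overlapped for all 3 genes. Cyp6a22 had a log2 fold change of -0.26 ± 0.13. Cyp6a23 stood at 0.17 ± 0.34, Cyp6a21 at 0.06 ± 0.20 and Cyp6a19 at 0.74 ± 1.21, and each of these 3 changed sign under some other setting. Reads of near-identical P450 copies may be divided unevenly between them by the authors' quantification.

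Beyond Cyp6a20, the 23 genes with the next smallest p and a mean of at least 1 CPM are described here as not called: their edgeR adjusted p ran from 0.223 to 0.359. Of these 24 genes in all, 13 were higher and 11 lower in Selected libraries. The groups did not overlap for 14 of them, 7 above and 7 below, against 39 (0.399%) of all genes tested. Both the order by p and the absence of overlap come from the same libraries, so the second is no separate evidence. By position, 9 of the 24 lie on 3L, 6 on 2R, 4 on 2L, 3 on 3R and 2 on X.

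**Figure D3:**
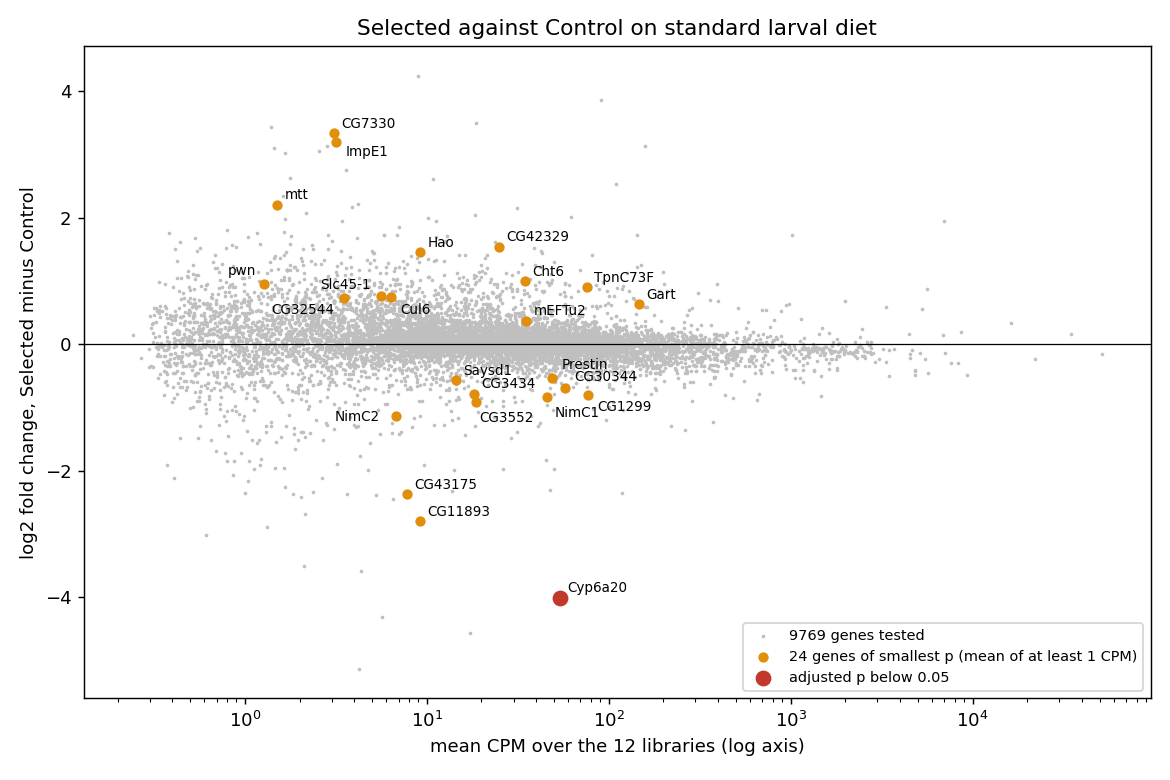
Log2 fold change, Selected minus Control, against mean CPM over the 12 libraries (log axis) for 9769 genes tested, with the 24 genes of smallest p marked. Cyp6a20 at -4.01 is the gene past the adjusted threshold.

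Receptors of blood cells were among the lower ones. NimC1, a phagocytosis receptor of plasmatocytes (2L, 13973158 to 13976769), was at 21.6, 30.2, 35.5, 41.7, 31.5 and 37.3 CPM in Selected S1 to S6, against 70.8, 68.6, 66.5, 53.7, 45.1 and 50.1 CPM in Control C1 to C6. No Selected library reached a Control library, and the log2 fold change was -0.84 ± 0.16. NimC2, of the same Nimrod family and 3357 bp away, was at 2.59, 4.15, 3.5, 4.48, 4.06 and 6.74 CPM in Selected libraries, against 9.04, 9.05, 14.6, 7.61, 9.47 and 6.09 CPM in Control libraries (-1.13 ± 0.25). Here S6 lay above C6, the lowest Control library. NimC2 overlaps the gene rk on the opposite strand, whose reads cannot be told apart without strand.

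CG11893 (3R, 25289889 to 25291366) had the second smallest p. It was at 1.08, 3.18, 2.95, 2.01, 1.95 and 2.65 CPM in Selected S1 to S6, against 14.2, 19.0, 8.83, 3.96, 35.6 and 14.6 CPM in Control C1 to C6, a log2 fold change of -2.80 ± 0.46. The groups did not overlap, and C4 was the lowest Control library. Without C4 the gene passed the test (-3.0, edgeR adjusted p = 0.0281), and over the removals of single libraries its adjusted p ran from 0.0281 to 0.606.

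CG43175 (3R, 17630717 to 17645262) was at 1.51, 1.94, 2.52, 6.99, 0.976 and 1.33 CPM in Selected libraries, against 7.52, 19.6, 22.3, 8.21, 14.1 and 7.0 CPM in Control libraries (-2.37 ± 0.51). S4 came just under the lowest Control library, C6, and the other Selected libraries lay well below. Prestin, an anion transporter of the SLC26 family (3L, 17898889 to 17907812), showed a small but tight difference. Its level was 39.3, 34.5, 45.9, 38.3, 35.7 and 46.9 CPM in Selected libraries, against 56.6, 58.4, 61.4, 54.5, 62.3 and 55.2 CPM in Control libraries (-0.53 ± 0.09), with no overlap.

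The other lower genes were Saysd1 (-0.57 ± 0.12), CG30344 (-0.69 ± 0.15), CG1299 (-0.80 ± 0.18), CG3434 (-0.78 ± 0.16) and CG3552 (-0.91 ± 0.21). Selected and Control libraries did not overlap for Saysd1 and CG30344. CG1299 averaged 56.0 ± 13.3 CPM in Selected and 97.6 ± 21.3 CPM in Control libraries, and S5 overlapped C4. CG3434 and CG3552 lie on opposite strands of 3L with ends that overlap, so part of their reads may be shared. CG6912, which does not belong to the 24 genes, averaged 19.9 ± 5.6 CPM in Selected and 32.7 ± 5.88 CPM in Control libraries (-0.72 ± 0.19, edgeR adjusted p = 0.484).

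Among the higher genes, several act in metabolism. Hao, a hydroxyacid oxidase (2R, 10883547 to 10884936), was at 14.1, 14.4, 9.95, 19.7, 15.8 and 7.07 CPM in Selected S1 to S6, against 4.65, 5.64, 2.25, 5.83, 5.57 and 5.51 CPM in Control C1 to C6. All Selected libraries lay above all Control libraries, and the log2 fold change was 1.46 ± 0.28. Gart, which catalyses several steps of purine synthesis (2L, 7014623 to 7023898), was at 183, 155, 167, 214, 208 and 144 CPM in Selected libraries, against 122, 135, 82.9, 117, 105 and 127 CPM in Control libraries (0.63 ± 0.14). The groups did not overlap. The cuticle gene Pcp lies within Gart on the other strand, and its reads cannot be told apart without strand.

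The mitochondrial translation factor mEFTu2 averaged 39.8 ± 2.84 CPM in Selected and 30.8 ± 2.55 CPM in Control libraries (0.37 ± 0.08), without overlap. The sugar transporter gene Slc45-1 averaged 7.08 ± 1.75 CPM in Selected and 4.17 ± 0.615 CPM in Control libraries (0.76 ± 0.18), also without overlap. Both differences were small beside those of Cyp6a20 or CG11893.

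Genes of the body wall were also among the higher ones. Cht6, a chitinase (X, 10016845 to 10050803), was at 33.1, 50.5, 44.2, 38.5, 66.5 and 44.2 CPM in Selected libraries, against 13.5, 25.4, 19.3, 24.3, 27.0 and 29.5 CPM in Control libraries (1.00 ± 0.20). Every Selected library exceeded every Control library. TpnC73F, a troponin C of muscle (3L, 17046063 to 17048390), was at 84.5, 104, 65.1, 81.5, 109 and 148 CPM in Selected libraries, against 41.3, 48.4, 48.0, 62.4, 66.8 and 50.5 CPM in Control libraries (0.90 ± 0.19). S3 lay below C5 and above the other Control libraries. The bristle gene pwn averaged 1.68 ± 0.395 CPM in Selected and 0.859 ± 0.167 CPM in Control libraries (0.96 ± 0.22).

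Among these 24 genes, the widest positive differences were in genes of low level. ImpE1, an ecdysone-inducible gene of imaginal discs (3L, 8372405 to 8391171), was at 2.71, 3.93, 5.75, 11.5, 5.35 and 5.3 CPM in Selected libraries, against 0.182, 0.0688, 0.751, 2.01, 0.179 and 0.507 CPM in Control libraries (3.20 ± 0.71). S4 and C4 were the highest of their groups, and the groups did not overlap. CG7330 averaged 5.66 ± 4.79 CPM in Selected and 0.555 ± 0.463 CPM in Control libraries (3.34 ± 0.75), with S1 below the highest Control library.

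mtt, a receptor related to metabotropic glutamate receptors, averaged 2.49 ± 1.30 CPM in Selected and 0.535 ± 0.248 CPM in Control libraries (2.21 ± 0.40), and S6 lay below C2. It overlaps Mal-A8 on the other strand. The last 3 were CG42329 (1.54 ± 0.33), CG32544 (0.73 ± 0.17) and the cullin gene Cul6 (0.74 ± 0.17). CG42329 ranged from 19.1 to 56.9 CPM in Selected and from 6.5 to 23 CPM in Control libraries. CG32544 ranged from 3.28 to 5.3 CPM in Selected and from 1.92 to 3.04 CPM in Control libraries, with no overlap. Cul6 ranged from 4.77 to 9.08 CPM in Selected and from 3.96 to 5.48 CPM in Control libraries.

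The poor diet libraries of the same populations gave a second measurement of these 24 genes. All 24 had the same sign there, against 76.1% of the 9660 genes tested in both diets, and 22 had an unadjusted p below 0.05, against 9.9% of all genes. The 2 exceptions were Hao (0.53 ± 0.49) and CG32544 (0.29 ± 0.22). Cyp6a20 averaged 9.55 ± 4.44 CPM in Selected and 136 ± 75.0 CPM in Control libraries on poor diet, a log2 fold change of -3.83 ± 0.40 (edgeR adjusted p = 0.00463). It was again the 1 gene called, 0.0102% of 9813. These libraries share populations with the standard diet ones but no carcasses, so they do not replicate the regimes in other populations. The 24 genes were picked by p, whereas the median size of the log2 fold change of all genes on standard diet was 0.15. The shares of all genes are therefore no like-for-like background.

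**Figure D4:**
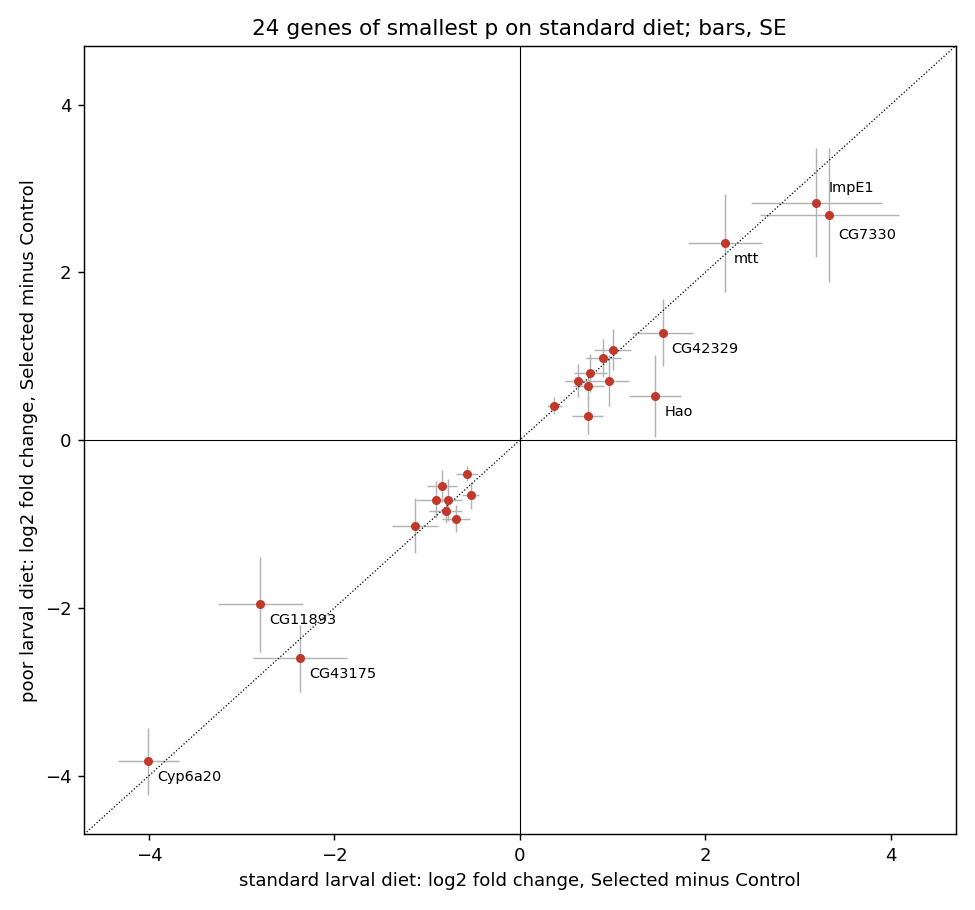
Log2 fold change, Selected minus Control, of the 24 genes with the smallest p on standard diet (horizontal axis), plotted against the same contrast in poor diet libraries (vertical axis); bars are SE and the dotted line marks equal values. All 24 lie in the quadrants of equal sign.

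Whether the regime difference itself depended on diet was tested as an interaction over all 24 libraries. No gene of 10184 passed (0%), the lowest adjusted p in edgeR was 1.0, and 155 genes (1.52%) had an unadjusted p below 0.05. For Cyp6a20 the difference on standard diet minus that on poor diet was -0.17 ± 0.27. Pfas, an enzyme of purine synthesis, was among the smallest p: its regime difference was 0.15 ± 0.13 on standard and 0.61 ± 0.14 on poor diet, an interaction of -0.43 ± 0.09. The low-level gene sing had -0.89 ± 0.23 on standard and 0.55 ± 0.30 on poor diet (-1.52 ± 0.33). Neither passed the adjusted threshold.

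Immune effectors were mostly lower in Selected libraries, and none was called. All 16 tested Bomanins and other peptides induced by Toll signalling had a negative log2 fold change, with a median of -0.75, where 0.04 is the median of all genes. An unadjusted p below 0.05 was found for 8 of the 16 (50.0%, against 6.18% of all genes). The lists were chosen with earlier results of these data known, so such shares are no separate evidence. BomBc2 was at 274, 300, 422, 679, 443 and 634 CPM in Selected S1 to S6, against 1235, 802, 759, 441, 954 and 878 CPM in Control C1 to C6 (-0.88 ± 0.27). C4, the Control library with over 1000 CPM of eggshell markers, was the one that fell within the Selected range. S1, S3 and S5 also exceeded that level. Fits with tissue scores as covariates, and without the libraries rich in eggshell markers, were also run. Their values for immune, hemocyte and melanization genes are not given here. The part of ovarian residue in the differences of these genes was not tested further. BomS4 averaged 125 ± 37.8 CPM in Selected and 216 ± 59.0 CPM in Control libraries (-0.79 ± 0.23), BomS5 had -0.84 ± 0.22 and BomS3 -0.85 ± 0.29. Neighbouring Bomanin genes are similar in sequence and may share reads. On poor diet all 17 tested members were negative, with a median of -0.61.

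Antimicrobial peptides were mixed. Of 13 tested, 9 were negative, with a median log2 fold change of -1.04. CecC, a cecropin, ranged from 0.0442 to 0.699 CPM in Selected and from 0.46 to 5.32 CPM in Control libraries (-2.89 ± 0.74). AttB, an attacin, averaged 1.18 ± 1.25 CPM in Selected and 6.1 ± 5.98 CPM in Control libraries (-2.37 ± 0.75). Drsl4, a drosomycin-like gene, lay the other way, at 71.5, 57.4, 195, 264, 285 and 451 CPM in Selected libraries, against 46.7, 105, 15.3, 149, 14.1 and 69.3 CPM in Control libraries (1.73 ± 0.65). The median on poor diet was -1.06.

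The Turandot and stress peptides, which are secreted after infection and stress, were negative in all 5 tested members, with a median of -1.99. TotA was at 9.44, 6.93, 4.31, 19.5, 20.9 and 35.0 CPM in Selected libraries, against 66.6, 208, 50.0, 13.3, 121 and 15.9 CPM in Control libraries (-2.30 ± 0.72). C2 was the highest Control library, and without it the median of the 5 genes was -0.62. TotC had -1.30 ± 0.65. Diedel stood at -2.35 ± 0.86 on standard and at 0.43 ± 0.97 on poor diet, where the median of the list was -0.82.

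Upstream of these effectors the differences were smaller. Of 22 tested genes of Toll and Imd signalling, 17 were negative, with a median of -0.10, and none had an unadjusted p below 0.05. The adaptor gene Myd88 had -0.44 ± 0.21. Among 17 genes of immune recognition the median was -0.10, with PGRP-SB1, a peptidoglycan recognition protein, at -1.17 ± 0.50.

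Hemocyte and melanization genes were also mostly lower. Of 16 tested hemocyte markers 15 were negative, with a median of -0.27, and 5 had an unadjusted p below 0.05 (31.2%, against 6.18% of all genes). NimC1 and NimC2, described above, belong to this list, which had in part been assembled with results of these libraries known. The collagen gene Col4a1, made by both hemocytes and fat body, had -0.19 ± 0.19. Summed over 17 markers, the level was 2192 to 3223 CPM in Selected and 2116 to 4313 CPM in Control libraries, so the groups overlapped.

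Of 13 melanization genes 11 were negative, with a median of -0.32. PPO2, a prophenoloxidase of crystal cells, was at 36.1, 83.0, 72.2, 89, 62.1 and 130 CPM in Selected libraries, against 266, 152, 184, 86.3, 164 and 123 CPM in Control libraries (-1.04 ± 0.31). PPO1, which also belongs to the hemocyte list, had -0.99 ± 0.34. Both genes overlapped between groups; for PPO2, S4 and S6 lay above C4. On poor diet the log2 fold changes were -0.89 ± 0.20 for PPO2 and -0.94 ± 0.21 for PPO1.

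**Figure D5:**
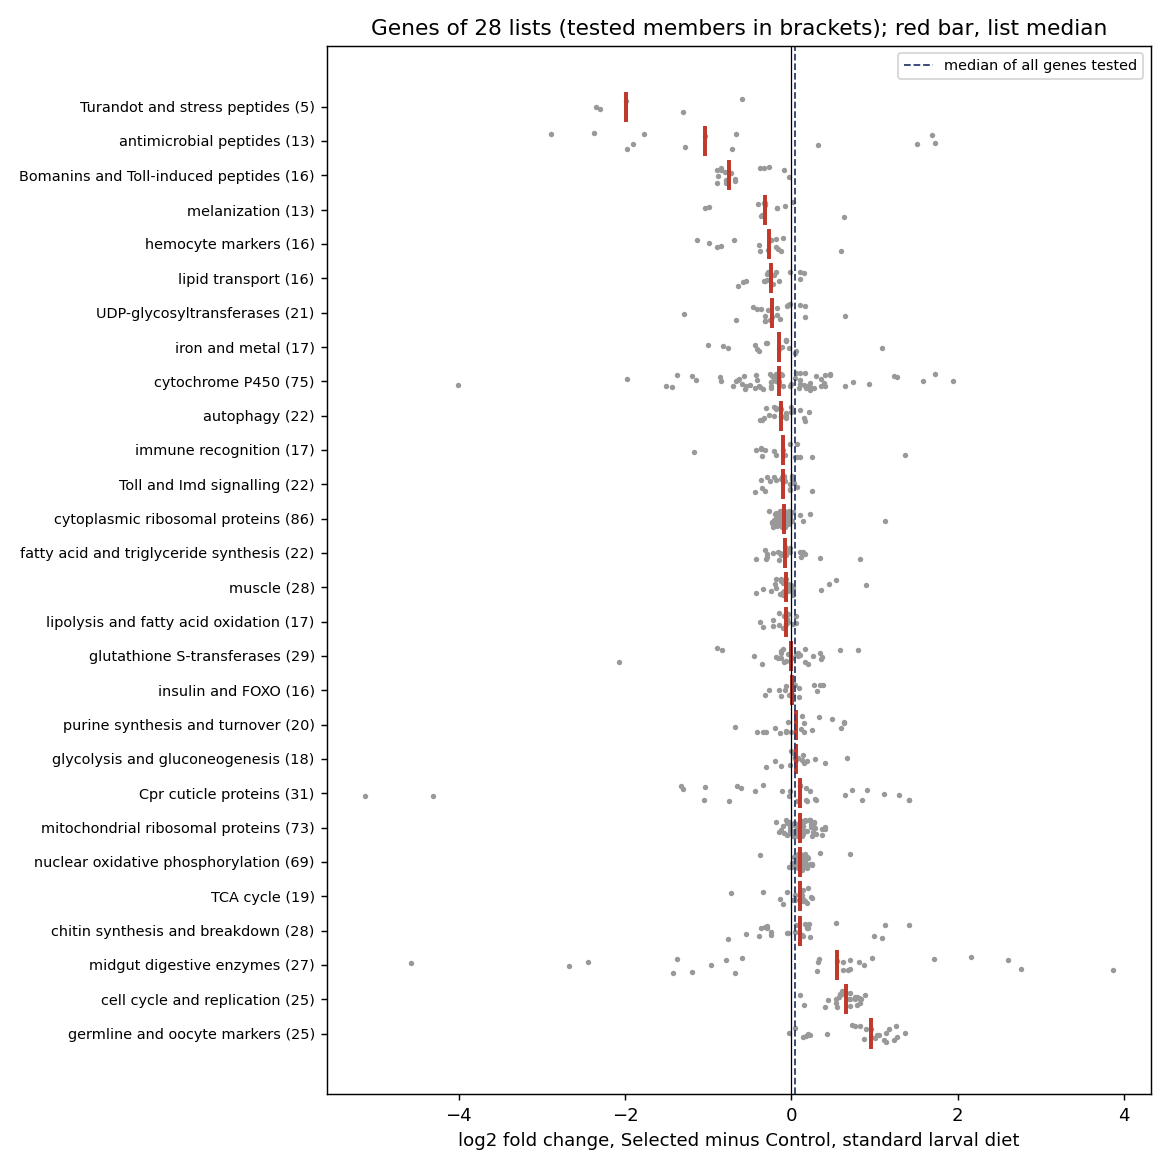
Log2 fold change, Selected minus Control, on standard larval diet for the tested genes of 28 lists (grey points, number in brackets), with each list's median as a red bar and the median of all genes (0.04) dashed. Turandot genes, antimicrobial peptides and Bomanins have the lowest medians, at -1.99, -1.04 and -0.75, and germline markers the highest of the lists drawn, at 0.96.

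Detoxification genes varied gene by gene. Of 75 tested P450 genes, 1 fell (Cyp6a20), none rose and 74 did not pass. Of the 75, 45 were negative, with a median of -0.15, which was 0.03 without the 4 libraries rich in eggshell markers. An unadjusted p below 0.05 was found for 3 higher and 12 lower P450 genes (20.0%, against 6.18% of all genes). Cyp4p1 was at 23.4, 35.3, 5.29, 7.49, 9.32 and 40.5 CPM in Selected libraries, against 86.3, 64.7, 82.7, 42.4, 109 and 91.9 CPM in Control libraries (-1.98 ± 0.49), without overlap. Cyp6g1, known for insecticide resistance, was at 207, 266, 323, 459, 2937 and 5197 CPM in Selected libraries, against 549, 362, 520, 397, 512 and 482 CPM in Control libraries (1.73 ± 0.77). S5 and S6 stood far above all other libraries, and the remaining Selected libraries lay within or below the Control range. Cyp4g1, the oenocyte enzyme of hydrocarbon synthesis, had -0.15 ± 0.16.

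Among conjugating enzymes, 29 glutathione S-transferases had a median of 0.0, with GstE3 at -0.89 ± 0.29. Of 21 UDP-glycosyltransferases 17 were negative, with a median of -0.23 that was 0.05 without the libraries rich in eggshell markers. Iron and metal genes were negative in 14 of 17, with a median of -0.15. The ferritin subunit gene Fer1HCH averaged 1540 ± 340 CPM in Selected and 2047 ± 418 CPM in Control libraries (-0.41 ± 0.17), and Fer2LCH, of the other subunit, had -0.39 ± 0.17. The metallothionein gene MtnA had -0.82 ± 0.34.

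Nuclear genes for mitochondrial proteins mostly had small positive log2 fold changes, and no member passed the test. Of 69 nuclear genes of oxidative phosphorylation 66 were positive, with a median of 0.10, and of 73 mitochondrial ribosomal protein genes 59 were positive, with a median of 0.10. Since the median of all genes was 0.04, these medians stood little above the background. The 13 mRNAs encoded by the mitochondrial genome had 7 positive and 6 negative values, with a median of 0.03 that changed sign under several settings. The ribosomal protein gene of smallest p was mRpL27, at 15.9, 15.4, 14.5, 14.5, 14.2 and 15.2 CPM in Selected libraries, against 11, 10.1, 11.3, 14.3, 10.3 and 12.2 CPM in Control libraries (0.37 ± 0.10). ND-ACP, the acyl carrier protein of complex I, had 0.19 ± 0.10. Of 19 genes of the TCA cycle 14 were positive, with a median of 0.11 that was -0.03 without S6. Within that cycle, ScsbetaG, a subunit of succinyl-CoA ligase, averaged 28.4 ± 4.2 CPM in Selected and 47.2 ± 13 CPM in Control libraries (-0.73 ± 0.18), while the fumarase gene Fum1 had 0.24 ± 0.10.

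Cytoplasmic ribosomal protein genes lay the other way on standard diet. Of 86 tested, 80 were negative, with a median of -0.09, whereas on poor diet 76 of 86 were positive, with a median of 0.06. RpS15Aa averaged 1261 ± 155 CPM in Selected and 1523 ± 240 CPM in Control libraries (-0.27 ± 0.12). The difference of the list between diets was not tested as a list.

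Purine and amino acid genes differed in both directions. AMPdeam, which turns AMP into IMP, was at 150, 213, 182, 277, 184 and 187 CPM in Selected libraries, against 426, 365, 258, 184, 281 and 405 CPM in Control libraries (-0.68 ± 0.21). Gart, described above, lay the other way, and 11 of the 20 purine genes were positive. Of 26 amino acid genes 15 were negative, with a median of -0.06 that was 0.02 with the germline score as covariate. An unadjusted p below 0.05 was found for 3 higher and 1 lower (15.4%, against 6.18% of all genes). Oat, the ornithine aminotransferase gene, averaged 77.5 ± 9.82 CPM in Selected and 51.8 ± 13.1 CPM in Control libraries (0.58 ± 0.16). Shmt, which links serine to one-carbon metabolism, had 0.59 ± 0.22. On poor diet these were -0.57 ± 0.09 for AMPdeam, 0.55 ± 0.23 for Oat and 0.67 ± 0.21 for Shmt.

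Lipid transport genes were mostly lower by small amounts. Of 16 lipid transport genes 13 were negative, with a median of -0.25. Karl, a lipocalin, averaged 21 ± 3.71 CPM in Selected and 32.8 ± 7.38 CPM in Control libraries (-0.64 ± 0.17). The scavenger receptor gene crq was at 118, 111, 114, 106, 138 and 132 CPM in Selected libraries, against 137, 146, 167, 142, 147 and 137 CPM in Control libraries (-0.28 ± 0.09). S5 just passed the lowest Control libraries, and crq also belongs to the hemocyte list. Fatty acid synthesis genes had 16 of 22 negative, with a median of -0.08 that was 0.08 with the germline score as covariate. Among its abundant members, the desaturase gene Desat1 had -0.29 ± 0.21 and the acyl-CoA synthetase gene Acsl -0.43 ± 0.25. Of 9 tested glycogen and trehalose genes 5 were negative and 4 positive, with a median of -0.07. The trehalose transporter genes Tret1-1 and Tret1-2 had -0.59 ± 0.24 and -2.32 ± 0.68, and the trehalose synthesis gene Tps1 had -0.46 ± 0.22. Tret1-2 also belongs to the list of tubule markers, and most but not all of the tubules had been taken out. Gapdh1, of glycolysis, had 0.28 ± 0.15.

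In the body wall, 31 tested cuticle proteins of the Cpr family had a median of 0.10 and ranged from -5.13 to 1.41, with 17 positive and 14 negative. An unadjusted p below 0.05 was found for 5 higher and 4 lower of the 31 members, a larger share than the 6.18% of all genes. Lcp65Ag3 had the smallest p of the list, with 0.0 to 0.466 CPM in Selected libraries, against 47.1 CPM in C3 and 0.0676 to 0.723 CPM in the other Control libraries (-5.13 ± 1.67). Without C3 its log2 fold change was -0.86. Cpr49Ae was at 828, 1107, 1040, 1317, 1441 and 1417 CPM in Selected libraries, against 399, 910, 465, 923.8, 1064 and 824 CPM in Control libraries (0.64 ± 0.24). Cpr47Ea had 1.30 ± 0.47. Of 20 tested pigmentation genes 12 were positive and 8 negative, with a median of 0.05 and a range from -1.81 to 1.34. The highest, y, averaged 7.33 ± 2.39 CPM in Selected and 2.89 ± 2.01 CPM in Control libraries (1.34 ± 0.59). C1 was at 0.109 CPM and the other Control libraries were at 1.89 to 6.18 CPM. Apart from TpnC73F, no muscle gene of the 28 tested had an unadjusted p below 0.05, and 19 of the 28 were negative.

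Nutrient signalling and hormone genes had no called member. No tested gene of the 16 in the insulin and FOXO list had an unadjusted p below 0.05, and 9 were positive, with a median of 0.01. The translation repressor Thor had -0.32 ± 0.25. Of 21 growth genes around TOR, 1 had an unadjusted p below 0.05 (4.76%, against 6.18% of all genes). It was Pdcd4, at 126 ± 73.5 CPM in Selected and 70.6 ± 25.9 CPM in Control libraries (0.84 ± 0.37). Autophagy genes were negative in 17 of 22, with a median of -0.12 and Atg9 at -0.33 ± 0.13. Of 21 ecdysone genes 12 were positive, with a median of 0.04; ImpE1, described above, had the smallest p among them (3.20 ± 0.71). The gene shd, whose enzyme makes the active hormone, had -0.58 ± 0.21. Among juvenile hormone genes the epoxide hydrolase gene Jheh2 had 0.17 ± 0.17. The clock gene cwo had -0.34 ± 0.17, while 13 tested clock genes had a median of -0.04. The chaperone gene Hsc70-4 had -0.23 ± 0.11, while 17 tested heat shock genes had a median of 0.03.

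The yolk protein genes Yp1 and Yp2 are the main secreted products of the female fat body. Yp1 was at 26890, 31697, 25053, 69830, 32278 and 35330 CPM in Selected libraries, against 55260, 28882, 28336, 23267, 29270 and 32456 CPM in Control libraries (0.16 ± 0.28). S4 and C1 stood apart from the rest of their groups, and without S4 the log2 fold change was -0.12. Yp2 had 0.34 ± 0.26. On poor diet both were negative, at -0.64 ± 0.52 and -0.72 ± 0.56, and the interactions of 0.85 ± 0.51 and 1.05 ± 0.60 did not pass the test.

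Lists of ovarian genes had positive medians and no called member. Of 25 germline and oocyte markers 24 were positive, with a median of 0.96, and all 25 genes of cell cycle and replication were positive, with a median of 0.66. No gene of either list had an unadjusted p below 0.05. With the germline score as covariate the cell cycle median was -0.33, and without the 4 libraries rich in eggshell markers it was -0.03. The yolk protein receptor gene yl, made in the oocyte, ranged from 5.45 to 679 CPM in Selected and from 0.31 to 537 CPM in Control libraries. Of 10 tested eggshell genes 8 were positive, with a median of 1.04 that was -0.01 without those libraries. The libraries were left out by their level of these same genes, so a lower median follows from the choice. The late chorion gene Cp15 averaged 0.569 ± 0.344 CPM in Selected and 2.75 ± 1.73 CPM in Control libraries (-2.26 ± 0.60).

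Midgut enzymes had a median fitted log2 fold change of 0.55, which was -1.74 without S6. Their mean log2 CPM pointed the other way, at 2.48 ± 2.52 in Selected and 3.83 ± 0.89 in Control libraries (SD, n = 6 each). Amy-p, an amylase gene that shares reads with a near-identical copy, ranged from 0.315 to 2.54 CPM in Selected and from 0.947 to 145 CPM in Control libraries (-4.57 ± 1.10). Of 20 tested tubule markers 13 were positive, with a median of 0.13, while Dh44-R2 had -0.70 ± 0.24. Of 9 tested genes of the reproductive tract 5 were negative, with a median of -0.04, and CG4267 had -0.51 ± 0.17. Of 18 tested neuron markers 13 were positive, with a median of 0.24, and Gad1 had 1.28 ± 0.68. The odorant binding protein gene Obp56a reached 25.8 CPM in S5 and 0.304 to 1.24 CPM in the other libraries (3.13 ± 1.03). The part of tissue residue in the differences of other genes was not tested beyond the values given.

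The number of genes called depended on the tool. DESeq2 called 47 genes on the same counts, 21 higher (0.215%) and 26 lower (0.266%) in Selected libraries, and all 47 had an unadjusted p below 0.05 in edgeR. The 24 genes of smallest p were all among them, together with Cyp4p1, CecC, Amy-p, Cp15, ScsbetaG, Tret1-2, crq and mRpL27 from the lists above. The groups did not overlap for 21 of the 47 genes, against 0.399% of all genes tested, and these genes were picked by p on the same libraries. By edgeR, which is the test behind every call above, Cyp6a20 alone passed.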

How the data were processed

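Reads were quantified by the authors with kallisto 0.46.2 on build BDGP6, per the submitters' processing notes. The deposited estimated counts and TPM per transcript are, per the file headers, those of 24 libraries of single reads (150 bp, 2 lanes, per the labels). Strand use is not stated in the labels. Of 30944 transcripts, 30811 joined the BDGP6.54 annotation (release 115). The rest, 0.2% to 0.39% of counts in the 12 standard diet libraries, was left out. Estimated counts were summed to 14220 genes and rounded. Another deposited table, with 24 columns of values per sample whose names match no label, was not used.

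Genes passing filterByExpr were tested with edgeR 4.0.16 (R 4.3.3; TMM factors, quasi-likelihood F test, Benjamini-Hochberg threshold 0.05), 6 Selected against 6 Control libraries. The interaction was fitted on 24 libraries with population as a block. The edgeR step was tested on simulated counts with the same dispersion (spread between libraries) for all genes and no tissue residue. That setting differs from these libraries, so it gives no error rate for them. CPM is TMM-normalised; SE is the fold change over the root of F. Each population gave 1 pool, so p-values cover the spread between populations. No pair of libraries was a duplicate (log2 CPM correlated at 0.8354 to 0.9791). Counting error weighs most on genes near 1 CPM.

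Alternatives were RLE factors, no filter, DESeq2 1.42.0, limma 3.58.1 voom, all 24 libraries, a replicate block, each library left out, tissue scores as covariates, and rRNA pseudogenes left out. Genes named are the 24 of smallest p (mean at least 1 CPM), up to 4 per list by p or level, genes within 20 kb of Cyp6a20, and genes of the whole-series or interaction fits. Members and lists were chosen with earlier results of these data known.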

Additional observations from a re-analysis of the deposited data

Results flagged for a closer look

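Values are given here where 1 library of a group of 6 stood apart from the other 5, that is, where its gap to the nearest library exceeded the critical share of the group's range (for genes, on the log2 scale). Chance alone flags about 1 in 20 groups. In CPM, the Selected library S4 was low for Cul6 (4.77, others 7.82 to 9.08) and high for Yp1 (69830, others 25053 to 35330), and S5 was high for Obp56a (25.8, others 0.552 to 1.24). Among Control libraries, C2 was high for mtt (1.03, others 0.373 to 0.507), C4 for Pdcd4 (122.7, others 51.8 to 64.6) and C3 for crq (166.5, others 136.9 to 147) and for Lcp65Ag3 (47.1, others 0.0676 to 0.723). C3 was low for Hao (2.25, others 4.65 to 5.83). C1 was low for CG32544 (1.92, others 2.61 to 3.04) and for y (0.109, others 1.89 to 6.18). S2 had 22.3 M counts (others of its group 30.3 to 31.4) and 9.3% of counts on ribosomal RNA pseudogenes (others 1.46% to 2.59%).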

How the results depend on the processing

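The call of Cyp6a20, with its direction, held with RLE factors, no filter on low counts, voom, all 24 libraries, rRNA pseudogenes left out, each tissue score, DESeq2, every removal of 1 library (log2 fold change -4.16 to -3.79) and, as chosen after seeing the data, removal of the 4 libraries rich in eggshell markers. No pairing by replicate number was seen: deviations of S and C libraries of the same number correlated at -0.686 to 0.28, and no library correlated best with its own number. The main components of these libraries followed germline and midgut scores, so the check could miss a pairing hidden by tissue residue. Whether the numbers mark a pairing was not settled. A replicate block gave 0 calls (Cyp6a20 -3.99, adjusted p 0.0861). DESeq2 gave 47 calls, 21 higher and 26 lower. Over removals of single libraries the count of calls, and of lower calls, was 1 to 2. It was 2 without C4, where CG11893 was added. The interaction gave 0 calls in every alternative run. The cause of these shifts was not tested. Not called and of changed sign were Cyp6a19 (-0.27 with the germline score, -0.15 with both scores, -0.39 without the libraries rich in eggshell markers) and, over removals of single libraries, Cyp6a21 (-0.11 without S6 to 0.18), Cyp6a23 (-0.01 to 0.41) and Yp1 (-0.12 without S4 to 0.37); Cyp6a21 was at -0.01 without C4. With 6 libraries a group, small differences may go undetected.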
